A study of Homo sapiens with 4 samples.

Results

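The clustered protocadherin genes encode cell-surface adhesion proteins of the cadherin superfamily and lie in 3 neighbouring arrays, alpha, beta and gamma, on the long arm of human chromosome 5. They were taken from the deposited table as the protein-coding entries on that chromosome whose symbols start with PCDHA, PCDHB, PCDHGA, PCDHGB or PCDHGC. The rule gave 53 of 60048 genes, with 15 in the alpha cluster, 16 in the beta cluster and 22 in the gamma cluster. In the alpha and gamma clusters each gene has a variable first exon with a promoter of its own, which is spliced to constant exons shared by the whole cluster. The beta genes have no shared constant exons. In neurons different cells use different sets of these promoters, and the proteins serve in self-recognition and in the spacing of neurites. Most of the promoters are known to bind CTCF, and cohesin-dependent loops between promoters and distal enhancers take part in the choice among them.

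The cells were HCT116, a human colorectal carcinoma line, of the genotype RAD21-mAC, in which the cohesin subunit RAD21 carries a degron tag in both groups. The control group received DMSO and the auxin group was kept for 3 h in the auxin IAA (indole-3-acetic acid) at 0.5 mM, which depletes the tagged RAD21 protein, with 2 libraries each. Nascent RNA of both groups was labelled with 0.5 mM 5-ethynyl uridine (EU) for 20 min, captured and sequenced. RNA of fly S2 cells, labelled in 0.2 mM EU for 2 h, was added to each sample ahead of the capture, and whether the deposited scale rests on it is not given in the sources used here. The comparison asks whether nascent transcription of the protocadherin arrays differed after short depletion of a protein on which their promoter choice is known to depend.

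The deposited values are a scaled signal over the whole span of each gene, introns included, with totals between 61135244 and 93113007 per library. Read depth per value is unknown, so error is given by the spread between libraries. Values below are on a common scale, made by dividing the libraries by between 0.816 and 1.21 (trimmed mean of M-values). This takes out any overall change in nascent RNA. The RNA of RAD21 had a log2 fold change of -0.0029. The epithelial markers EPCAM, CDH1, KRT8, KRT18, KRT19 and CLDN4 all passed the filter on low values, with summed signals of 60439 and 67929 in control and 60060 and 62658 with auxin. Among them CDH1 had a log2 fold change of 0.55 (limma adjusted p = 0.0578), KRT19 of -0.37 and KRT8 of -0.26. The fibroblast markers summed to 599 and 772 in control and 927 and 1039 with auxin, without overlap and mostly from COL1A1 (log2 fold change 0.54, limma adjusted p = 0.335), while DCN, the next highest per kb, had 0.506 per kb of gene. The leukocyte markers summed to between 47.3 and 66.1. The neuronal markers summed to 11111 to 20474, of which the long gene SYT1 alone gave between 10363 and 19796. Per kb of gene, SYT1 had 24.9, ELAVL3 7.81, RBFOX3 0.989, SNAP25 0.653 and STMN2 0.326. None of the marker genes had a limma adjusted p under 0.05, and the part of any marker in the results below was not tested. Nothing in the labels says that the replicates were separate cultures, so the tests measure the spread between these libraries.

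Promoter sequences of 47 of the 53 genes were matched by symbol in RefSeq (GRCh38.p14), as windows from 250 bases before to 50 bases after the annotated start. The sequences below show the short CGCT element long described in these promoters. They were picked among promoters that held CGCT exactly once between 30 and 100 bases before the start. In each cluster they are the 3 of these with the most signal per kb. The promoters of PCDHA9, PCDHAC2, PCDHGC3 and PCDHGC4 did not hold it exactly once there. From the alpha and beta clusters a pair of genes at 0 in all libraries (PCDHA5, PCDHA6, PCDHB3 and PCDHB7) was added from promoters that met the same CGCT rule. No gamma gene was at 0. For PCDHGA10 the RefSeq start lies 189 bases upstream of its deposited start. All the sequences are on the plus strand, lie upstream of the RefSeq start, and have CGCT in capitals.
PCDHAC1 (chr5:140926216-140926259): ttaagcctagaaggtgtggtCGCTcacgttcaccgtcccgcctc
PCDHA11 (chr5:140868879-140868922): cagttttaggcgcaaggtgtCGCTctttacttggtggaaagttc
PCDHA7 (chr5:140834168-140834211): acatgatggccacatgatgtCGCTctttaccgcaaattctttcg
PCDHA5 (chr5:140821538-140821581): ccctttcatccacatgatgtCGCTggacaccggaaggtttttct
PCDHA6 (chr5:140827893-140827936): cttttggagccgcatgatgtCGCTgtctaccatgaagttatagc
PCDHB13 (chr5:141213861-141213904): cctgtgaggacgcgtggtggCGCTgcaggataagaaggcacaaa
PCDHB15 (chr5:141245310-141245353): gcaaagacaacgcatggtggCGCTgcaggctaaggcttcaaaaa
PCDHB1 (chr5:141051270-141051313): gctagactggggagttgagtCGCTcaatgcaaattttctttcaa
PCDHB3 (chr5:141100389-141100432): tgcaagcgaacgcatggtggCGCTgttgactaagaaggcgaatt
PCDHB7 (chr5:141172562-141172605): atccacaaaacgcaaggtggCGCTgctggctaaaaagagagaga
PCDHGA10 (chr5:141412927-141412970): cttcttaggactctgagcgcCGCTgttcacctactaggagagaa
PCDHGB7 (chr5:141417603-141417646): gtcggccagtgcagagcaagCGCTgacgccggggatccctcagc
PCDHGA11 (chr5:141420968-141421011): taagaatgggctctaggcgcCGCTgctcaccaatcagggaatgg

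CGCT stood on the gene's strand between 30 and 100 bases before the start in 39 of the 47 matched promoters (83%), against 21.6% of all 35116 promoter entries. By cluster it did so in 12 of 13 alpha, 12 of 14 beta and 15 of 20 gamma promoters. Anywhere in the 300 bases and on either strand it was found in 46 of the 47, against 70% of all entries. The 9 bases GGTGGCGCT, which contain CGCT, were the 9-base string found in more of the matched promoters than any other, on the gene's strand. They were found on either strand in 13 of 14 matched beta promoters, in 0 alpha and 0 gamma promoters, and in 0.501% of all entries. The beta promoter without the string was that of PCDHB1. The motif windows were set after the sequences were seen, and a match describes the letters in a window, not bound protein. The 9-base string was picked from these same promoters for being frequent, so its share beside that of all entries is a description, not a test. The printed promoters, such as those of PCDHB3 at 0 and PCDHB13 with signal, were all picked because they held the element. They cannot show whether it goes with signal, which was not tested.

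Because the genes of the alpha and gamma clusters share their far end, their entries overlap, and most of each value is common to all of them. The alpha genes run from starts at chr5:140786140 onward to the same end, so the PCDHA1 entry covers the whole alpha span, chr5:140786140-141012347. The PCDHGA1 entry covers the gamma span, chr5:141330685-141512981. The table counts a position for every gene that covers it and without regard to strand. In the whole table, 0% of 39896 values of genes nested in a gene on the opposite strand exceeded the value of their host. A minus-strand transcript inside the alpha cluster, AC005609.5, had deposited values of 4.23, 2.08, 0 and 4.07, and the PCDHA1 entry less the PCDHA7 entry came to 4.24, 2.08, 0 and 4.07 in the same libraries. Each gene was therefore also described by its own stretch, from its start to the start of the next gene of its cluster, with the value of the next entry subtracted. That stretch holds the variable first exon and the intron after it, through which RNA polymerase from all upstream promoters also passes. By the RefSeq start of PCDHGA10, its first 189 bases fall in the stretch before its own, that of PCDHGB6. The stretches of PCDHAC2 and PCDHGC5, the last of their clusters, additionally hold the constant exons, so their signal is not specific to those promoters.

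The clusters differed widely in how much nascent signal they carried. Per kb of its own stretch, and as a mean of the 4 libraries, the signal reached 75.2 for PCDHGC5, 31.2 for PCDHGA10, 19.7 for PCDHGC4 and 13.3 for PCDHGB7 in the gamma cluster. In the alpha cluster it reached 7.01 for PCDHAC2, 2.10 for PCDHAC1 and 0.902 for PCDHA11, and in the beta cluster 2.28 for PCDHB13, 1.39 for PCDHB15 and 1.16 for PCDHB1. The median of the 17767 protein-coding genes that passed the filter was 63.2 per kb of gene, with quartiles of 9.62 and 181. PCDHGC5 lay above 53.9% of those genes, PCDHGA10 above 37.5%, PCDHAC2 above 22.3% and PCDHB13 above 14.0%. Median signals over all genes of a cluster were 0.201 per kb for alpha, 0.175 for beta and 2.65 for gamma. In all 4 libraries, 9 genes were at 0 in their own stretch: PCDHA3, PCDHA5, PCDHA6, PCDHB3, PCDHB5, PCDHB6, PCDHB7, PCDHB8 and PCDHB9. A further 25 were above 0 in every library. In a bulk culture, few cells with much RNA of a gene and many cells with little cannot be told apart.

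**Figure D1:**
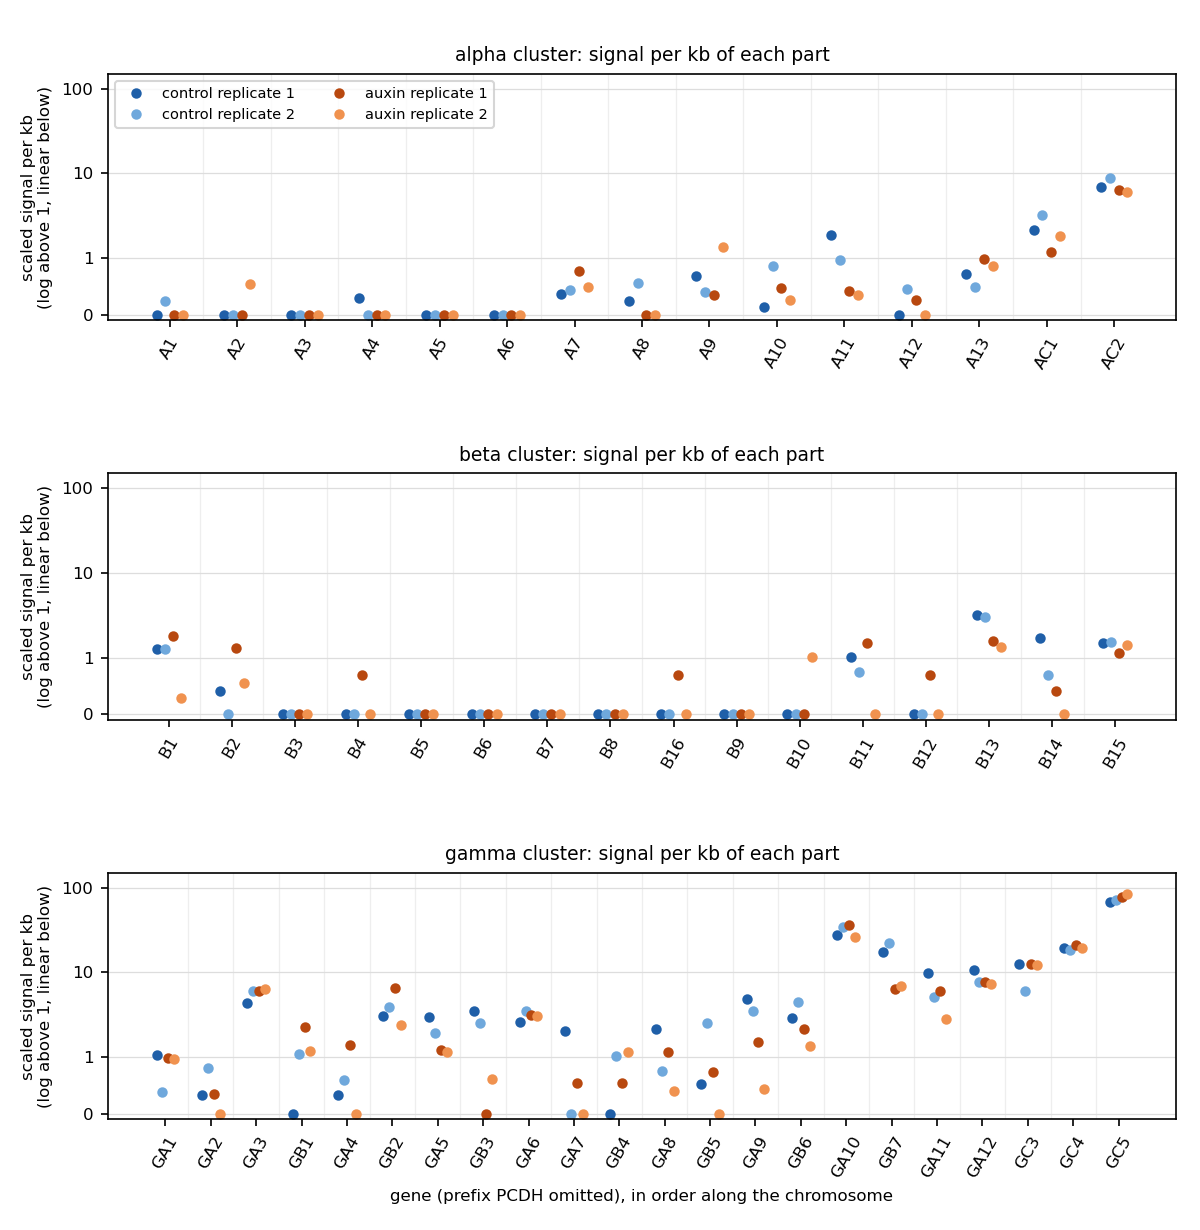
Scaled nascent signal per kb of each gene's own stretch (vertical axis, logarithmic above 1 and linear below) for the alpha, beta and gamma genes in chromosomal order, with 1 point per library. Signal rises to 75.2 per kb at PCDHGC5, while no stretch from PCDHA1 to PCDHA12 has a mean above 0.902 per kb.

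As whole entries, 39 of the 53 genes passed the filter on low values, and none was called with auxin. They were all 15 alpha, 2 beta and all 22 gamma entries, and none had an unadjusted limma p under 0.05, where 0.732% of the 39464 genes tested were called at an adjusted p under 0.05 and 10.2% had an unadjusted p under 0.05. The nested entries of the alpha and of the gamma cluster share most of their signal, so the 39 are not separate results. Of the separate stretches 18 passed the filter (3 alpha, 2 beta and 13 gamma) and 35 did not. None of the 18 was called (limma, adjusted p under 0.05), against 0.74% of the 39443 entries tested in the table that held the stretches. An unadjusted p under 0.05 was reached by 3, PCDHAC1, PCDHGA9 and PCDHGB7, all lower with auxin, where 5.47% of all entries had such a p and were lower. Both auxin libraries lay below both control libraries in 7 of the 18 and above them in 3, where 19.6% and 18.6% of all entries did so. The median log2 fold change of the 18 stretches was -0.31, and that of all entries tested was 0.0090. PCDHB13, PCDHGA5 and PCDHGA9 reached the filter value in the control libraries alone, so passing it already set their direction.

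**Figure D2:**
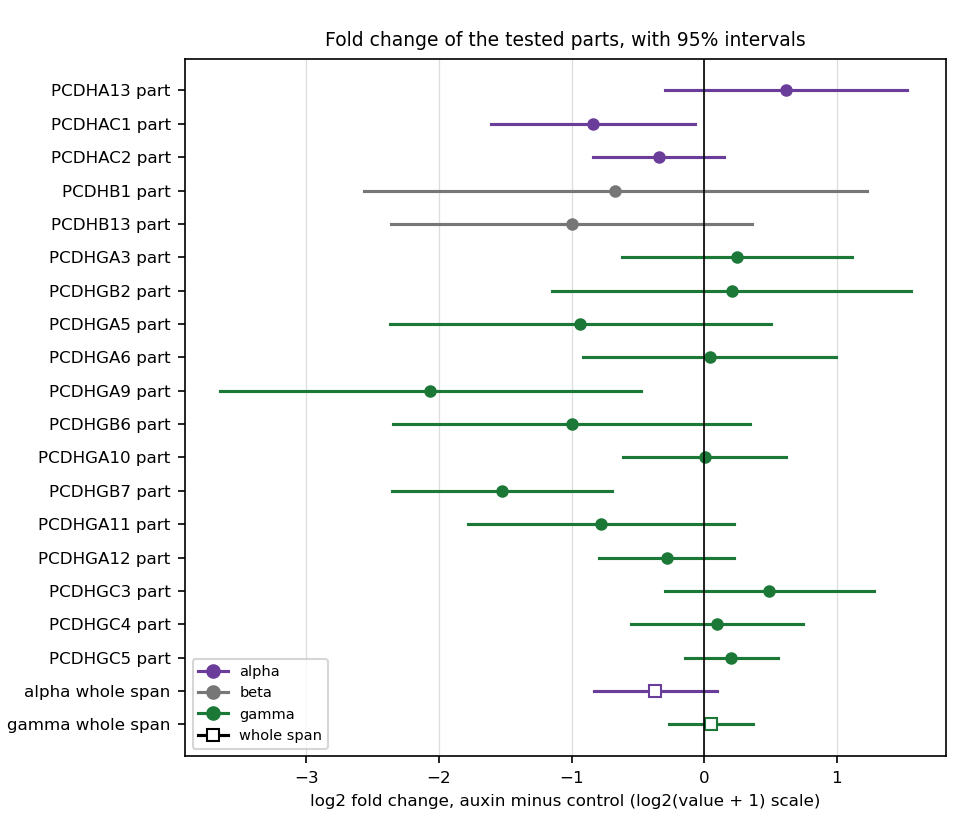
Log2 fold change of auxin against control on the log2(value + 1) scale (horizontal axis) for the 18 stretches that passed the filter and for the whole alpha and gamma spans (open squares), with 95% intervals from limma. The intervals of PCDHAC1, PCDHGA9 and PCDHGB7 lie below 0, and those of the other 15 stretches and both spans include 0. PCDHGA9 reached the filter value in the control libraries alone, which set its direction.

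In the alpha cluster the whole span, as the PCDHA1 entry, had signals of 461 and 590 in control and 400 and 408 with auxin. The auxin libraries lay below the control libraries without overlap, at a log2 fold change of -0.37 (standard error 0.21, limma adjusted p = 0.637). The other alpha entries share most of this signal, and their log2 fold changes lay between -0.44 and -0.34. Leaving out a library gave values from -0.54 without control replicate 1 to -0.19 without control replicate 2. Most of the span's signal lay in the stretches of the C-type genes, through which transcription from upstream promoters also runs. C-type genes differ from the alternate genes in being placed next to the constant exons and in being used more evenly among neurons.

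PCDHAC2, the last alpha gene, had signals of 316 and 405 in control and 291 and 274 with auxin in its stretch, which includes the constant exons. The auxin libraries were lower without overlap, with a log2 fold change of -0.34 (standard error 0.22, limma adjusted p = 0.716). PCDHAC1, the C-type gene before it, had 85.6 and 131 in control and 47.2 and 73.0 with auxin. Its auxin libraries were also both the lower ones, and the log2 fold change of -0.84 with a standard error of 0.35 did not pass the test (limma adjusted p = 0.422). Leaving out 1 library at a time gave values from -1.15 to -0.52 for PCDHAC1 and from -0.51 to -0.16 for PCDHAC2.

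The alternate alpha genes carried little signal. None of the stretches from PCDHA1 to PCDHA12 passed the filter, and the highest value in any library was 11.9, in PCDHA11. PCDHA11 had signals of 11.9 and 6.13 in control and 2.67 and 2.25 with auxin, which correspond to 14, 6, 3 and 2 of the smallest steps in the table and were not tested. PCDHA13, the last alternate gene and the only one that passed, had 32.2 and 21.5 in control and 43.7 and 38.2 with auxin. Its stretch is long, at 44.2 kb against 6.35 kb for PCDHA11, and the filter does not allow for length. Per kb PCDHA13 had 0.767, less than the 0.902 of PCDHA11. For PCDHA13 the auxin libraries were the higher ones, with a log2 fold change of 0.61 (standard error 0.41, limma adjusted p = 0.728). In the table that held merged stretches 0.741% of all entries were called, and none of the stretches was. Merged into a stretch from PCDHA1 to PCDHA13, a division chosen after the values were seen, the alternate genes had 59.3 and 54.2 in control and 62.4 and 60.6 with auxin (log2 fold change 0.11, limma adjusted p = 0.974).

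The beta genes, which each consist of a promoter and a coding exon with no shared part, were close to silent. Of the 16, 6 were at 0 in every library, and 14 did not pass the filter, with no value above 7.62. PCDHB13 had signals of 16.1 and 15.3 in control and 8.03 and 6.74 with auxin. Its auxin libraries both lay below the control libraries, with a log2 fold change of -1.001 (standard error 0.61, limma adjusted p = 0.680). PCDHB1, the first gene of the cluster, had 10.2 and 10.2 in control and 14.3 and 2.25 with auxin. The auxin libraries lay on either side of the control libraries, and the log2 fold change of -0.67 (limma adjusted p = 0.911) became 0.44 without auxin replicate 2. PCDHB15 had 5.93 and 6.14 in control and 4.45 and 5.62 with auxin, lower in both auxin libraries and too low to be tested. Summed over all 16 genes, the beta signal was 45.8 and 37.9 in control and 48.1 and 20.2 with auxin, which overlapped (log2 fold change -0.40, limma adjusted p = 0.896; 0.20 without auxin replicate 2). The minus-strand entry AC244517.5, at 1.22 per kb, runs across PCDHB1, which had 1.16 per kb. Another, AC244517.11, at 0.609 per kb, runs across PCDHB13, which had 2.28. AC244517.10, at 1.06 per kb, overlaps the start of PCDHB15. Strand was not used in the counting, so the values of these beta genes cannot be assigned to them alone. Beta genes resemble each other closely in sequence, and how reads that fit several of them were placed is not given in the sources used here.

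The gamma cluster held most of the protocadherin signal. Its whole span, as the PCDHGA1 entry, had 2746 and 2670 in control and 2801 and 2809 with auxin. The auxin libraries were marginally higher, with a log2 fold change of 0.05 (standard error 0.14, limma adjusted p = 0.974). Of the 19 A- and B-type stretches 10 passed the filter, PCDHGA5 and PCDHGA9 only through the control libraries, and all 3 C-type stretches passed. The difference between the types was not tested on fold changes.

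PCDHGB7 is a B-type gene near the downstream end of the variable array, in the table at chr5:141417677-141512975. It is described here because its values stood out once they were seen. Its stretch had signals of 59.3 and 74.7 in control and 21.4 and 23.6 with auxin, or 70, 73, 24 and 21 steps. Both auxin libraries were less than the lower control library by a wide margin, with group means of 67.0 ± 10.9 and 22.5 ± 1.55 (SD, n = 2 each). In log2 terms the stretch was at -1.53 (standard error 0.37), with an interval from -2.36 to -0.70, and the limma adjusted p was 0.125. Per kb, the signal was 19.9 in control and 6.67 with auxin. Leaving out each library in turn gave log2 fold changes between -1.68 and -1.36.

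PCDHGA10, whose stretch ends where that of PCDHGB7 begins, is the A-type gene with the most signal per kb. It had 123 and 157 in control and 162 and 119 with auxin. The groups overlapped, and the log2 fold change of 0.0033 had an interval from -0.61 to 0.62 (limma adjusted p = 0.998), with a sign that turned to -0.16 without control replicate 1 and to -0.21 without auxin replicate 1. PCDHGA11, on the other side of PCDHGB7, had 94.1 and 49.1 in control and 57.1 and 27.0 with auxin, which also overlapped (log2 fold change -0.78, limma adjusted p = 0.653). PCDHGA12, the last A-type gene, had 492 and 350 in control and 350 and 331 with auxin over its long stretch (log2 fold change -0.28, limma adjusted p = 0.806). Its higher auxin library and lower control library were nearly equal, so the groups just overlapped. PCDHGA9, an A-type gene further upstream, had 25.4 and 18.4 in control and 8.02 and 2.25 with auxin. The auxin libraries were lower without overlap, but at 30, 18, 9 and 2 steps, and the log2 fold change of -2.07 with a standard error of 0.72 did not pass the test (limma adjusted p = 0.302); it was -1.09 with a pseudocount of 10. Without auxin replicate 1 it was -2.82 and without auxin replicate 2 it was -1.32. The other A- and B-type genes that passed were PCDHGA3, PCDHGB2, PCDHGA5, PCDHGA6 and PCDHGB6, with log2 fold changes from -0.9999 for PCDHGB6 to 0.25 for PCDHGA3. The 9 that did not pass had no value above 12.7.

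**Figure D3:**
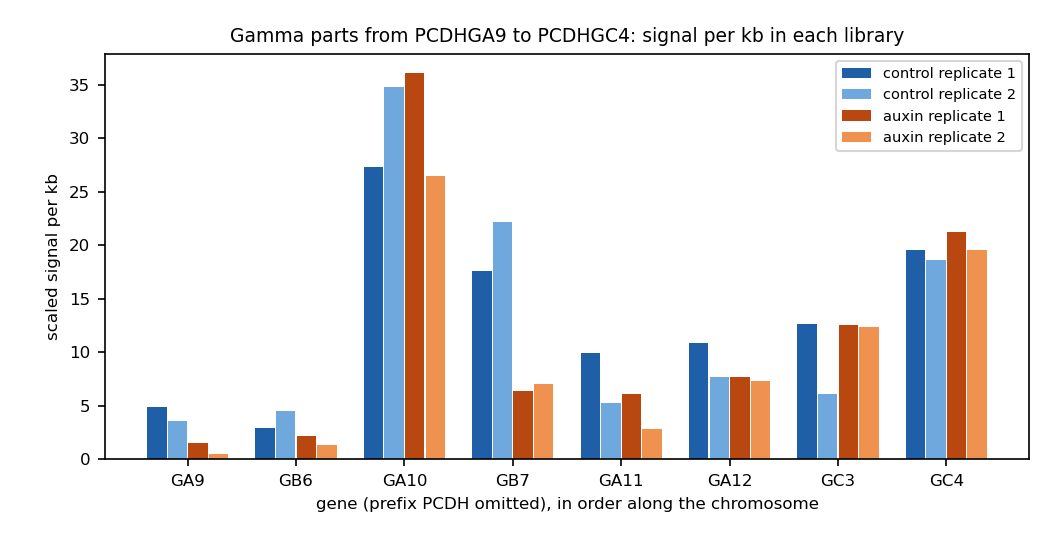
Scaled nascent signal per kb (vertical axis, from 0) of the own stretches of 8 neighbouring gamma genes from PCDHGA9 to PCDHGC4, with a bar for each of the 4 libraries. At PCDHGB7 both auxin bars lie below both control bars (means of 6.67 and 19.9 per kb), while at the adjoining PCDHGA10 the bars of the groups overlap.

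The C-type gamma genes lie next to the constant exons. PCDHGC3 had 116 and 56.3 in control and 115 and 113 with auxin. Control replicate 2 stood below the other 3 libraries, and the log2 fold change of 0.49 (limma adjusted p = 0.758) was -0.024 without it. PCDHGC4 had 76.3 and 72.7 in control and 83.0 and 76.4 with auxin, with all 4 libraries close together (log2 fold change 0.10, limma adjusted p = 0.977). PCDHGC5, whose stretch holds the constant exons used by every gamma transcript, had 1615 and 1726 in control and 1849 and 2002 with auxin. Both auxin libraries were higher, with a log2 fold change of 0.20, a standard error of 0.16 and an interval from -0.15 to 0.56 (limma adjusted p = 0.789). DIAPH1, on the minus strand at chr5:141515021-141619055, lies just beyond the end of this stretch, with 174 per kb. Strand was not used in the counting, and whether signal from DIAPH1 runs on into the PCDHGC5 stretch was not tested.

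Because the stretches share a span, their shares of it can be compared without any scaling between libraries, a measure chosen after the values were seen. The A- and B-type stretch took 34.2% and 30.5% of the gamma signal in control and 26.9% and 22.0% with auxin. The PCDHGC5 stretch took 58.8% and 64.7% in control and 66.0% and 71.3% with auxin, and PCDHGC3 with PCDHGC4 took between 4.83% and 7.07%. The groups did not overlap in the first of these shares, 32.3% ± 2.59 against 24.4% ± 3.49, or in the second, 61.7% ± 4.13 against 68.6% ± 3.71 (SD, n = 2 each). With 2 libraries a group the two-sided exact permutation p was 0.333 for both, which is the smallest p this design allows. Both are shares of the same total, so they are not independent. PCDHGB7 alone took 2.16% and 2.80% of the gamma signal in control and 0.764% and 0.839% with auxin, without overlap. Its stretch is part of the A- and B-type stretch and was picked for its values, so its share is not a further result. As levels, the merged A- and B-type stretch had 938 and 815 in control and 754 and 618 with auxin (log2 fold change -0.36, standard error 0.19, limma adjusted p = 0.608). The merged C-type stretch had 1807 and 1855 in control and 2047 and 2192 with auxin (log2 fold change 0.21, standard error 0.15, limma adjusted p = 0.765). Neither stretch passed the test. Their groups did not overlap, as was so for 19.6% of all entries in the lower and 18.6% in the higher direction.

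In the alpha span, the stretch from PCDHA1 to PCDHA13 took 12.9% and 9.19% in control and 15.6% and 14.9% with auxin. PCDHAC1 took 18.6% and 22.2% in control and 11.8% and 17.9% with auxin, and PCDHAC2 took between 67.2% and 72.6% in all libraries. The first of these shares was higher and the second lower in both auxin libraries (exact permutation p = 0.333 for each, the smallest possible), and that of PCDHAC2 overlapped (exact permutation p = 1). Being shares of one total, they are not independent either.

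**Figure D4:**
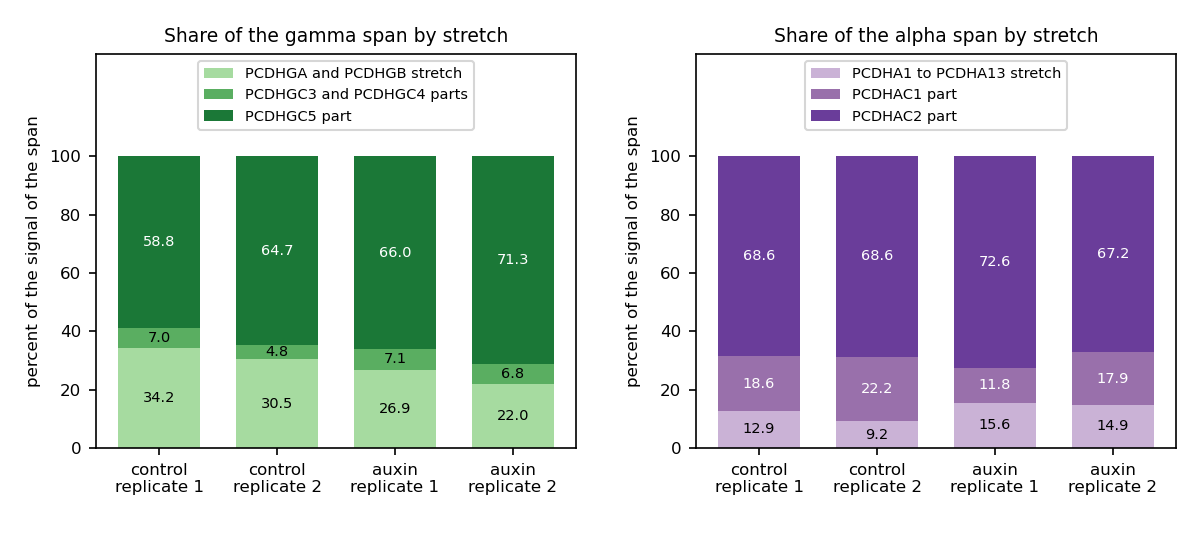
Percent of the deposited signal of the gamma span (left) and the alpha span (right) in each stretch, stacked to 100 in each of the 4 libraries. In the gamma span the A- and B-type share is 34.2% and 30.5% in control and 26.9% and 22.0% with auxin.

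Among 15 genes that encode CTCF, cohesin, its loaders and unloaders, and repressors known to act on the protocadherin arrays, all were tested, 1 was called and 4 had an unadjusted p under 0.05, where 0.732% and 10.2% of all genes tested did so. The called gene was STAG1, a cohesin subunit, with 26340 and 29885 in control and 44680 and 48949 with auxin. Both auxin libraries were well above both control libraries, with a log2 fold change of 0.74 (standard error 0.10, limma adjusted p = 0.0129). On the deposited scale, without the common scaling, the log2 fold change was 0.72 and the call was lost (limma adjusted p = 0.999999). The others with an unadjusted p under 0.05 were SMCHD1, PDS5B and SMC3, each lower in both auxin libraries. Their log2 fold changes were -0.38, -0.40 and -0.43 (limma adjusted p = 0.233, 0.255 and 0.378). In the list 6 genes had a positive and 9 a negative log2 fold change, with a median of -0.0043. CTCF itself, which binds the promoters, had a log2 fold change of 0.15 (limma adjusted p = 0.736).

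Of 16 genes for proteins that act with or on clustered protocadherins at the membrane, including the WAVE regulatory complex, the kinases PTK2 and PTK2B, the protease ADAM10 and gamma-secretase, all were tested and none was called (limma), while 3 had an unadjusted p under 0.05, against the same shares of 0.732% and 10.2% of all genes. The smallest p belonged to ABI1, a subunit of the WAVE complex, with 4728 and 4641 in control and 5838 and 7119 with auxin. They were higher in both auxin libraries (log2 fold change 0.46, limma adjusted p = 0.233). The list's median log2 fold change was 0.083.

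Among 12 protocadherin genes outside the clusters, 9 were tested, none was called (limma), and 2 had an unadjusted p under 0.05 (all genes: 0.732% and 10.2%), with a median log2 fold change of -0.017. PCDH8, PCDH18 and PCDH20 were at 0 in all libraries. PCDH7, a delta protocadherin, had 3789 and 6219 in control and 1762 and 2616 with auxin. Both auxin libraries were lower, with a log2 fold change of -1.18 (standard error 0.25, limma adjusted p = 0.0710). Its result turned on single libraries: the limma adjusted p was 0.0119 without control replicate 1, 0.225 without control replicate 2 (log2 fold change -0.82), 0.00993 without auxin replicate 1 and 2.83e-07 without auxin replicate 2. In each of these fits the lone library of a group is assumed to vary like the pair of the other group.

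The 42 other entries inside the arrays or among the 5 nearest on each side included pseudogenes, antisense RNAs and housekeeping genes, and 22 of them were tested. None was called (limma), 2 had an unadjusted p under 0.05, a share near the 10.2% of all genes (0.732% called), and their median log2 fold change was -0.040. TAF7, which encodes a general transcription factor subunit and lies between the beta and gamma clusters, had 1589 and 1762 in control and 1738 and 1542 with auxin. Its groups overlapped (log2 fold change -0.03), at 722 per kb against 75.2 per kb for PCDHGC5. The smallest p was that of FCHSD1, downstream of the gamma cluster, with 1827 and 1743 in control and 2729 and 2501 with auxin. Signal was higher in both auxin libraries (log2 fold change 0.55, limma adjusted p = 0.179). The pseudogene PCDHGB9P, which lies inside the stretch of PCDHGA12, had 19.5 and 15.3 in control and 7.13 and 2.25 with auxin (log2 fold change -1.83, limma adjusted p = 0.404). It reached the filter value in the control libraries alone, which set its direction, and it is the other entry with an unadjusted p under 0.05.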

How the data were processed

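EU-seq signal was analysed in 4 libraries of HCT116 RAD21-mAC cells. Per the submitters' processing notes, Trimmomatic 0.39, Bowtie2 2.4.5, deepTools 3.5.1 and the builds hg38 and dm6 were used; counting and scaling are not given in the sources used here. The authors deposited a signal per gene and library, on the whole gene span. Every low value was a whole multiple (within 0.02) of a step of 0.847, 1.04, 0.727 and 1.36 for the control and then the auxin libraries. Steps were not treated as reads, because only between 0.144% and 0.535% of low genes of at least 10 kb held 1 step, against 21.9% to 25.1% at 2 or 3. The test is therefore limma on log2 values, not the count test first planned. A misspelt column was assigned to control replicate 2, whose number it carries. Table starts were printed 1 higher, as counting from 0, and of 47 members matched in RefSeq 43 starts were then equal.

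Entries that reached 10 in at least 2 libraries, with library totals set to their median, and summed to at least 15 were divided by TMM factors (trimmed mean of M-values, 30% and 5% trimmed) and fitted as log2(value + 1) with lmFit and eBayes (R 4.3.3, limma 3.58.1; Python 3.11.15, pandas 2.3.3, matplotlib 3.10.9), over the whole table, with Benjamini-Hochberg adjustment and a threshold of 0.05. Fold changes on this scale understate those of low genes. A gene's own stretch was its entry less the next entry of its cluster, and 0 differences were negative. Members, lists, windows and tests were chosen with earlier results of these data known. Library values are given for called members, the 3 stretches per cluster with the most signal per kb, C-type genes, whole spans, and each list's called genes and smallest p; PCDHGB7, PCDHGA9, PCDHGA11, PCDHGA12, PCDHA13, CTCF, TAF7 and PCDHGB9P were added after their values were seen. In simulations of the table of stretches, 200 changed entries were drawn at random from all entries tested. Of these 69.2% were recovered at 4-fold (5.38% of calls false) and 14.9% at 2-fold (8.91% false). With no change there were 0 calls. Alternatives were other scalings, pseudocounts and filters, a stricter adjusted p, a replicate block, leaving out each library, and, added after seeing the data, merged stretches and shares.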

Additional observations from a re-analysis of the deposited data

How the results depend on the processing

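No whole member entry was called under any alternative run, and no separate stretch was except with the replicate number as a block, where 3 were: PCDHAC1 (limma adjusted p = 0.0428), PCDHGA9 (0.0448) and PCDHGB7 (0.00223). With the block, limma gave every entry the spread fitted over all entries at its signal level. These p-values therefore do not measure the spread of a stretch's own libraries. PCDHGA9 reached the filter value in the control libraries alone, so passing it had already set its direction. The replicate block also gave 4 called regulators, 3 partners, 2 protocadherins outside the clusters and 1 neighbouring entry, as the calls over the whole table rose from 0.74% to 10.8%. Whether the numbers pair the libraries was checked by the correlation of same-numbered deviations from the group means (r = 0.231 over all entries tested, 0.462 over those with a mean of at least 50). With 2 pairs, and no label that ties a number to a day or culture, the pairing was not established.

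Regulators called fell to 0 on the deposited scale and at an adjusted p under 0.01. Protocadherins outside the clusters ranged from 0 to 1 called when a library was left out. Medians moved to -0.59 for alpha with a mean of at least 50, and to 0.36 for beta and -0.24 for gamma with no filter. Leaving out a library gave medians from -0.51 to -0.16 for alpha, -1.46 to -0.22 for beta and -0.32 to 0.060 for gamma. Changes of sign were not followed for PCDHA13, PCDHGA3, PCDHGB2, PCDHGA5, PCDHGA6, PCDHGB6, PCDHGA11 and PCDHGA12. Among the single results that were followed, the sign turned for PCDHB1 (0.44) and the beta sum (0.20) without auxin replicate 2. It also turned for PCDHGC3 (-0.024) without control replicate 2. For PCDHGA10 it turned on the deposited scale (-0.016), without control replicate 1 (-0.16) and without auxin replicate 1 (-0.21). Over all such omissions PCDHB1 ranged from -1.80 to 0.44, the beta sum from -1.00133 to 0.20, PCDHGC3 from -0.024 to 1.02 and PCDHGA10 from -0.21 to 0.22. The cause of these shifts was not tested. Read depth is unknown, 35 stretches were too low to test, and simulations of these 4 libraries recovered 14.9% of 2-fold and 69.2% of 4-fold changes. The changed entries were drawn from all those tested, and recovery among low stretches alone was not measured.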
